A study of Mus musculus with 23 samples.

Results

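The data described here are the change in messenger RNA of mouse embryonic stem (ES) cells over the second day after doxycycline was taken away, from 24 h to 48 h. They rest on 4 of the 23 libraries of the series, 2 at each time, chosen by their times in the labels, and on 18412 genes in the exon and intron tables. TT-FHAgo2 cells carry null alleles of Blm and of Ago1, Ago2, Ago3 and Ago4, a CreERT2 transgene and an Ago2 transgene that is transcribed when doxycycline is present. They were raised in 0.1 µg/mL doxycycline, given 2.5 µg/mL for 48 h, a dose the labels equate with the wild-type amount of Ago2 protein, and then moved to medium without it; RNA was taken at 0, 24, 48 and 96 h. All 4 groups of the time course share the genotype, gelatin-coated dishes, serum and LIF. The labels describe the cells as clonal lines, and nothing in them says that the 2 libraries of a time came from separate cultures, so the p-values measure only the spread between libraries. The 48 h cells had also been 24 h longer in culture than the 24 h cells, and time in culture and time without doxycycline cannot be told apart. A rescue experiment, with 2 libraries per group, took cells raised at 0.1 µg/mL through 96 h of withdrawal. One group was collected then, and the others after doxycycline had been returned for 48 h, at 0.1 or at 2.5 µg/mL, so that their cells spent 48 h more in culture.

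Argonaute proteins bind microRNAs and carry them to messenger RNAs, where the complex, with its partner proteins of the TNRC6 family, represses translation and hastens decay of the message. Bases 2 to 8 of the microRNA, its seed, do most of the target recognition, by pairing with sites in 3' untranslated regions (UTRs). ES cells are known for a few abundant families with closely related seeds, from the miR-290 cluster, the miR-302 cluster and the miR-17 cluster, whereas let-7 microRNAs are held low there by the RNA-binding protein Lin28.

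The sequences of these microRNAs are shown because the sites counted further on are the complements of their seeds. Letters are from RefSeq on GRCm38.p6, 5' to 3', with the seed in capitals. The positions are chr7:3220691-3220712 (plus strand) for miR-294-3p, chr7:3218968-3218989 (plus) for miR-291a-3p, chr3:127545665-127545687 (plus) for miR-302d-3p, chr14:115043684-115043706 (plus) for miR-17-5p, chr14:115044183-115044205 (plus) for miR-20a-5p and chr13:48538239-48538260 (minus) for let-7a-5p.
mmu-miR-294-3p: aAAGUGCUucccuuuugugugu
mmu-miR-291a-3p: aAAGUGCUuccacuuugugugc
mmu-miR-302d-3p: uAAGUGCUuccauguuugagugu
mmu-miR-17-5p: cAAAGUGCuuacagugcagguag
mmu-miR-20a-5p: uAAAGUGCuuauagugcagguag
mmu-let-7a-5p: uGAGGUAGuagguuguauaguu
The first 3 share 1 seed, the next 2 share the miR-17 seed, and the seeds of these 2 groups have the letters AAGUGC in common.

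Values are normalised reads, that is, exon reads of a gene in 1 library divided by that library's size factor. Exon reads were 45.1 and 32.9 M in the 24 h libraries and 62.4 and 58.0 M in the 48 h libraries, so that depth moved with the group; its part in the results was not tested. Libraries of 1 time differed by a median of 0.0870 on the log2 scale at 24 h and 0.0733 at 48 h. A principal component holding 51.0% of the variance of the time course placed the libraries in the order of their times. The summed level of 5 ES cell markers (Pou5f1, Sox2, Nanog, Zfp42 and Esrrb) was 319890 and 317917 at 24 h and 305744 and 304306 at 48 h. Of 8 fibroblast markers, Col1a2, Col3a1, Dcn, Lum and Postn stayed below 10 in both groups, and the 8 summed to 644 to 679 at 24 h and 605 to 655 at 48 h. Sums for primitive endoderm (322 and 379, then 368 and 412) and mesoderm (275 and 287, then 272 and 305, with T below 10) overlapped between the times. Those for trophoblast (185 and 166, then 118 and 182) overlapped too, with Cdx2 and Elf5 below 10, and 4 neural markers summed to 10800 and 10533, then 11341 and 11616.

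The Argonaute genes were read first. Ago1 had 0 exon reads in every time course library. Ago2 went from 11337 and 11503 normalised exon reads to 11016 and 11550, values that overlapped and gave a log2 change of -0.02 (SE 0.04, adjusted p = 0.78). It had 11759 and 12167 at 0 h, so exon reads of this gene did not follow the removal of doxycycline; the files do not say whether reads of the transgene or of the mutant locus are counted there, and these reads do not check the labels. Ago3 read 2765 and 2545 at 24 h and 2315 and 2316 at 48 h, a log2 change of -0.20 (adjusted p = 0.010). The adjusted p was 0.151 without 24 h library 1, 0.0611 without 48 h library 1 and 0.0616 without 48 h library 2. Ago4 stayed at 32 to 36.1 reads. Blm, the other targeted gene, read 5660 and 5068, then 4936 and 4741, a change of -0.15 (adjusted p = 0.029) that fell to -0.07 without 24 h library 1 (adjusted p = 0.429).

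Over this day 2754 of 13652 tested genes rose (20.2%) and 2570 fell (18.8%), most of them by little. Second-day counts in the gene lists below are to be read against these shares. All of the lists were chosen with earlier results of these data known, so their counts are no independent evidence of direction. Tested genes averaged 10 or more normalised reads in the time course, and the threshold for a call was 0.05 on limma's p after Benjamini-Hochberg adjustment. The median absolute log2 change of all tested genes was 0.195, their median change 0.01 and the median standard error 0.0797. At least 2-fold changes were called in 166 genes upward (1.22%) and 45 downward (0.33%). Genes that rose had a median level of 1800 normalised reads and a median exon length of 4174 bases, and those that fell 2741 reads and 2174 bases, against 1196 reads and 2954 bases over all tested genes. Length thus moved with the direction of change, and its part in the result was not tested. The at least 2-fold changes were in genes of low level, with medians of 59.1 reads for rises and 52.9 for falls. In a simulation with 200 of 13652 genes changed, 84% of those changed 1.5-fold were recovered and 95% of those changed 2-fold, and 4.79% of calls were false. Its spread between libraries, besides read-count noise, was 0.0528 on the log2 scale for every gene, a value taken from genes of high level. The real comparison called far more genes, so these shares need not hold for it.

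Metallothionein genes, with the zinc exporter Slc30a1, turned from a fall to a rise. Mt2, which encodes a small cysteine-rich protein that binds zinc and copper, went from 3607 and 3280 normalised reads to 18934 and 18161. The groups lay far apart, 5.39-fold, for a log2 change of 2.43 (SE 0.05, adjusted p = 2.9e-20). Its neighbour Mt1 rose 3.03-fold, from 2334 and 2324 to 6976 and 7136 (1.60, SE 0.05). Slc30a1, which exports zinc across the plasma membrane, rose from 1245 and 1233 to 2805 and 2975 (1.22, SE 0.06, adjusted p = 4.2e-13). All of these had fallen on the day before: at 0 h Mt2 read 16291 and 16016, Mt1 5755 and 6267, and Slc30a1 3642 and 3473. At 96 h they read 21796 and 24296, 9922 and 9902, and 3233 and 3088. Intron reads moved with the exon reads of Mt2, from 57.0 and 51.9 to 294 and 299 (2.42, adjusted p = 5.1e-13), and of Mt1, from 68.0 and 48.8 to 198 and 233 (1.88, adjusted p = 7.7e-09). The intron change of Slc30a1 was 0.84 (adjusted p = 0.32). Each of these genes is known to be driven by the zinc-sensing factor MTF1 through metal response elements. In a list of 14 genes of metal handling and the NRF2 oxidative stress response, 7 rose and 3 fell, with a median of 0.11; Sqstm1, which encodes an autophagy receptor, rose by 0.43.

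The stretches before these starts are shown because the genes turned together. The letters TGCNCNC were sought on both strands and are in capitals where found. These letters are a looser form of the core of the metal response element, which takes only A or G after TGC. Matches to that stricter core were not counted. The stretches cover the 250 bases before the RefSeq start on GRCm38.p6, plus strand, at chr8:94172368-94172617 for Mt2, chr8:94178839-94179088 for Mt1 and chr1:191906531-191906780 for Slc30a1.
Mt2: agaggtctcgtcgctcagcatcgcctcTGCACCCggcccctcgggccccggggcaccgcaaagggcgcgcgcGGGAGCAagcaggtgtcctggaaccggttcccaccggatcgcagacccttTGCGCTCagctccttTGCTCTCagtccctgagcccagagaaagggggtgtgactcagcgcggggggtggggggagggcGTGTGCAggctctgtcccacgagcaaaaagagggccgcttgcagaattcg
Mt1: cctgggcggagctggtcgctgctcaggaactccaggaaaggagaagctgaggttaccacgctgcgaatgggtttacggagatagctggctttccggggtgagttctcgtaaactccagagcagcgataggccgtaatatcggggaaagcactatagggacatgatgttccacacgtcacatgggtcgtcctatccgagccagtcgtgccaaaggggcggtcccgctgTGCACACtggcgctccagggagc
Slc30a1: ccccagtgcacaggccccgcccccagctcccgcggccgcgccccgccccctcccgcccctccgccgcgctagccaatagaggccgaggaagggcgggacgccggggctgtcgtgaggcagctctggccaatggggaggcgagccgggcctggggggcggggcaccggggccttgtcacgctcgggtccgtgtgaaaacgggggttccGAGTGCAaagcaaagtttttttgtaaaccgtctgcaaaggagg
In these 250 bases Mt2 held 5 matches, Mt1 1 and Slc30a1 1. Bases after the RefSeq start and further upstream were not searched. Of 27025 promoters of this length 47.2% held at least 1 match, 17% at least 2 and 0.392% at least 5, so a single match is common. A match is a description of these letters only.

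**Figure D1:**
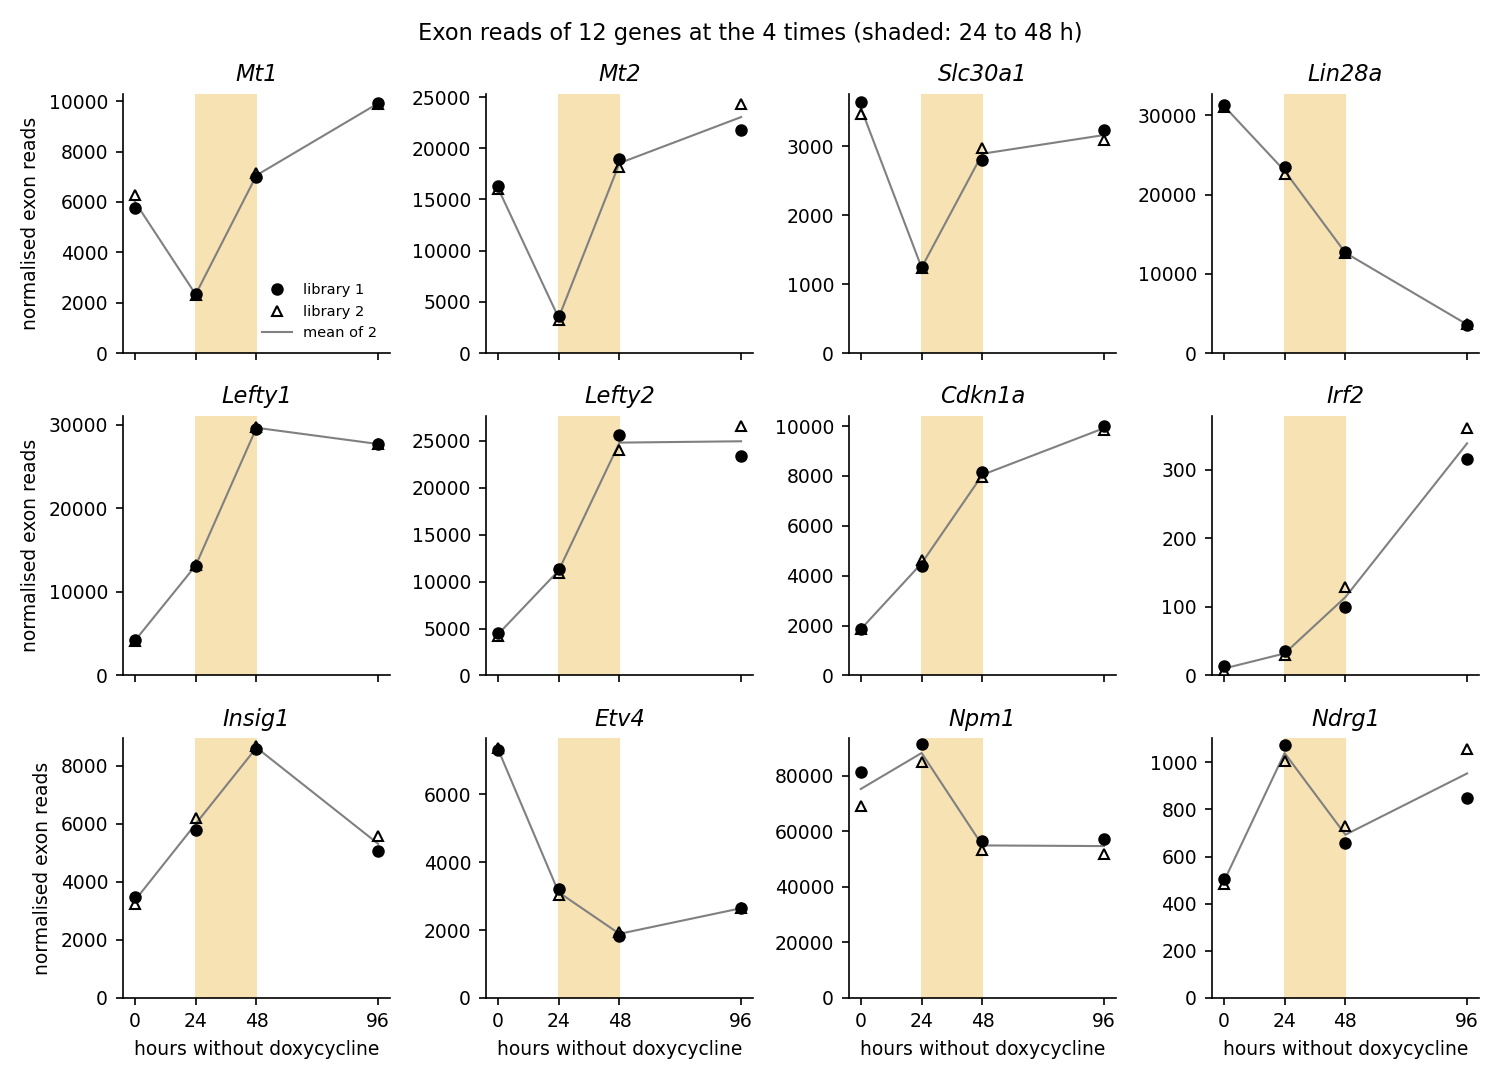
Normalised exon reads (linear axis from 0, its own in each panel) of 12 genes against hours without doxycycline, with filled circles for library 1, open triangles for library 2, a line through their mean and the second day shaded. Between 24 and 48 h Mt2 goes from 3607 and 3280 to 18934 and 18161, Lefty1 from 13071 and 13219 to 29492 and 29770, and Lin28a from 23442 and 22526 to 12723 and 12573.

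Beyond the metallothioneins, the largest rises were in genes with few reads. They were taken from the 12 largest of 70 rises of at least 2-fold in which libraries did not overlap and the higher group mean reached 100. Nr2f2, which encodes the orphan nuclear receptor COUP-TFII and is a published target of the miR-302 family, rose from 23.4 and 42.2 to 157 and 127 (2.13, SE 0.25, adjusted p = 4.8e-07). Irf2, an interferon regulatory factor, rose from 35.1 and 29.1 to 99.3 and 129 (1.79, SE 0.32). Dusp8, a phosphatase of the JNK and p38 kinases, rose from 65.9 and 26.2 to 181 and 145 (1.93, SE 0.32), and by 1.28 when 24 h library 2 was left out. Chit1, a chitinase, rose from 75.4 and 26.2 to 216 and 123 (1.85, SE 0.35), and by 1.10 without 24 h library 2. The 24 h libraries of Dusp8 and of Chit1 lay far apart, so the size of these rises is less certain than their direction. Tmem132d, a membrane protein gene, had close libraries and rose from 206 and 207 to 567 and 625 (1.52, SE 0.14, adjusted p = 1.5e-08). The others given here were Alox12e, a lipoxygenase (1.63), Sypl2 (1.62), Loxl4, a lysyl oxidase of collagen and elastin (1.5), and Bdkrb2, the bradykinin B2 receptor (1.49).

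The largest falls were smaller and fewer: 13 genes met the same conditions and 12 are given. Cntnap2, a neurexin-like adhesion protein gene, fell from 136 and 167 to 39.1 and 56.4 (-1.66, SE 0.27, adjusted p = 3.8e-05). Pou2f3, a POU transcription factor, fell from 592 and 633 to 260 and 242 (-1.28, SE 0.14, adjusted p = 1.7e-07). Rhox5, a homeobox gene of the X chromosome, fell from 522 and 540 to 269 and 242 (-1.06, SE 0.13). In each of these genes both 48 h libraries lay well below both 24 h libraries. Mgl2, a C-type lectin, fell by 1.44 on the log2 scale, Matn3, a cartilage matrix protein gene, by 1.32, and Sepp1, which encodes the selenium carrier selenoprotein P, by 1.22. Sh2d4a read 97.8 and 106, then 43.6 and 37.1 (-1.32, adjusted p = 0.010), a call lost without 24 h library 2 (adjusted p = 0.0626) or 48 h library 2 (0.0865). Polr2k, a small subunit shared by the nuclear RNA polymerases, fell by 1.13, Irf8 by 1.08, and Kdelr3, a receptor that returns proteins to the endoplasmic reticulum, by 1.06. Stk31 (-1.06) and Rasl11a (-1.05) complete the list.

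**Figure D2:**
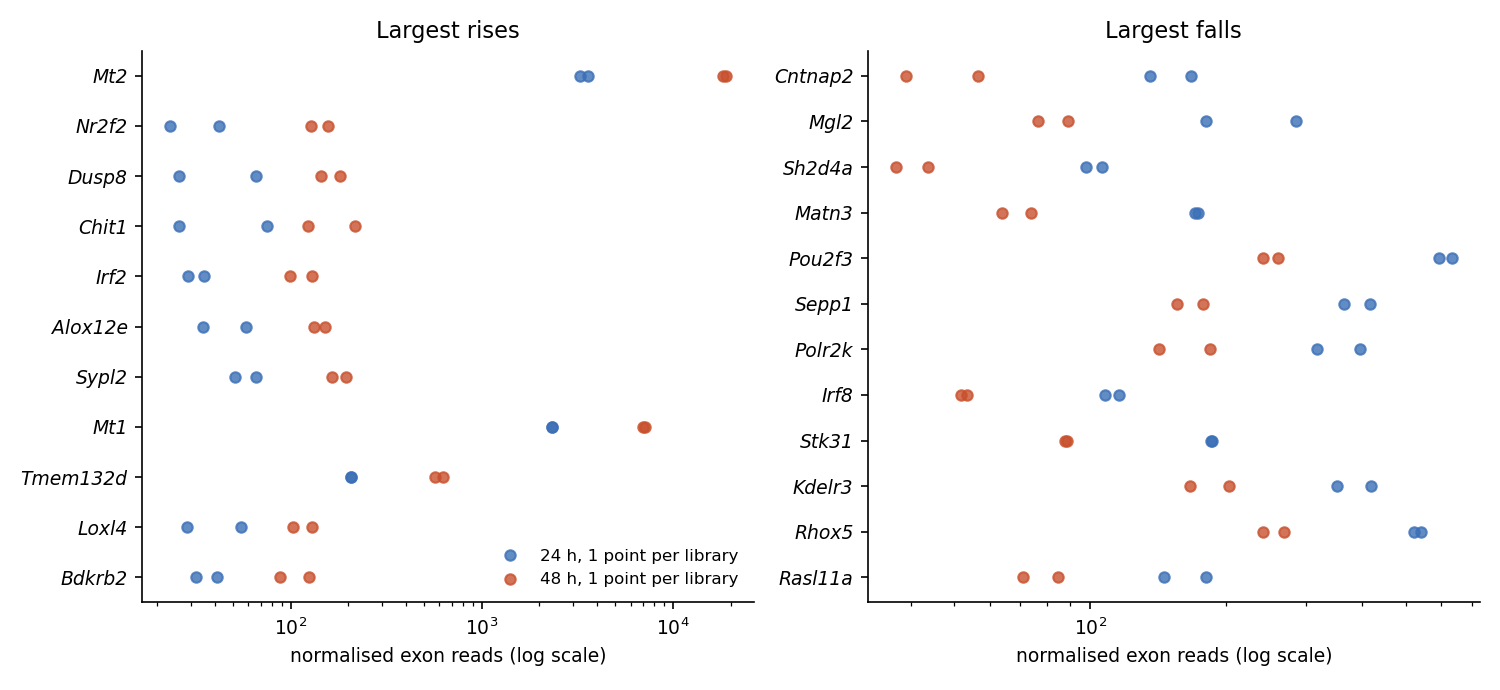
Normalised exon reads (log scale) of genes with the largest rise (left) and the largest fall (right), 1 point per library at 24 h (blue) and 48 h (red). The groups do not overlap in any gene shown, as the choice of genes required; Dusp8 and Chit1 have 24 h libraries far apart, at 65.9 and 26.2 and at 75.4 and 26.2.

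Published targets of ES cell microRNAs rose together. Of 18 listed, 17 were tested, 13 rose and 0 fell, with a median log2 change of 0.78 against 0.01 for all tested genes. The list was drawn up with earlier results of these data known and is no independent evidence of direction. Lefty1 and Lefty2, secreted inhibitors of Nodal, rose most among the abundant members. Lefty1 went from 13071 and 13219 reads to 29492 and 29770 (1.17, SE 0.04, adjusted p = 5.2e-16), and Lefty2 from 11383 and 10957 to 25620 and 23979 (1.15, SE 0.05). Lats2, a kinase of the Hippo pathway, rose from 545 and 496 to 1149 and 995 (1.04, SE 0.09). Cdkn1a, the cell cycle inhibitor p21, rose from 4373 and 4620 to 8140 and 7947 (0.84, SE 0.05, adjusted p = 8.8e-12). Tgfbr2, the type II Tgf-β receptor, rose from 181 and 160 to 326 and 289 (0.85), and Rbl2, a pocket protein that restrains E2F, from 1768 and 1700 to 3111 and 2837 (0.78). Libraries of the 2 times did not overlap in any of these genes. Smaller rises were called in the antiproliferative genes Btg2 (0.78) and Btg1 (0.30), in Casp2, a caspase (0.47), in Mbd2, which binds methylated DNA (0.42), and in Ei24 (0.17). Nr2f2 and Irf2 were given above. Pdcd4 (0.13), Bcl2l11 (0.10) and Rhoc (0.01) were among the members not called, and Dkk1 had too few reads to be tested.

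The sites of the miR-294 seed in several of these UTRs are shown with 10 bases on each side, as the site AGCACTT is what the classes below count. They lie in 3' UTR exons of GENCODE M21 on GRCm38, with the site in capitals, 5' to 3' on the strand of the gene: chr1:180938203-180938229 (plus) in Lefty1, chr1:180897907-180897933 (plus) in Lefty2, chr17:29099818-29099844 and chr17:29100490-29100516 (plus) in Cdkn1a, chr8:46846654-46846680 (plus) in Irf2, and chr14:57691077-57691103 and chr14:57690978-57691004 (minus) in Lats2.
Lefty1: ctgtatgcgaAGCACTTacatgtatag
Lefty2: acccagtttaAGCACTTacatgggtaa
Cdkn1a, first site: agacctgaatAGCACTTtggaaaaatg
Cdkn1a, second site: tgggtgtcaaAGCACTTagtgggtctg
Irf2: cttatcttgaAGCACTTacaataggcc
Lats2, first site: gtatggaaagAGCACTTattttgtgga
Lats2, second site: tgtatctgatAGCACTTgtccacagct
Nr2f2 and Btg2 had 0 such sites in the UTR model used, and also rose. Shorter matches and other UTR models were not searched.

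The share of genes that rose went up with the number of miR-294 and miR-17 sites. Of 13333 tested genes with a UTR model, those with 1500 to 3500 bases are compared. Of these, 21.8% of the 2901 without a miR-294 site rose, 31.9% of the 821 with 1 site and 40.4% of the 156 with 2 or more. Falls went the other way, at 16.2%, 12.8% and 6.41%. The median log2 change was 0.03, 0.11 and 0.14, so the shift per gene was small next to the 0.195 median size of change. For the miR-17 site GCACTTT the shares that rose were 22.0% of 3065 genes, 33.0% of 722 and 49.5% of 91. The shares that fell were 15.9%, 11.8% and 13.2%, and so did not drop further with 2 or more miR-17 sites. The sites of the 2 seeds overlap in the letters GCACTT, and the same genes can be counted for both. For the let-7 site CTACCTC the shares were 24.6% of 3323, 24.7% of 493 and 27.4% of 62, close to one another. Over UTRs of any length the let-7 shares climbed: 2353 of 11925 genes without a site rose (19.7%), 308 of 1231 with 1 and 51 of 177 with 2 or more (28.8%). Median UTR length went from 1027 to 2120 and 3645 bases over those let-7 classes, and its part was not tested. For miR-294 the shares over any length were 18.0%, 30.2% and 39.4%. UTR length still differed within the miR-294 classes, at medians of 2152, 2327 and 2614.5 bases, and its part was not tested. In introns the medians of the 3 miR-294 classes were 0.01, 0.02 and 0.07.

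**Figure D3:**
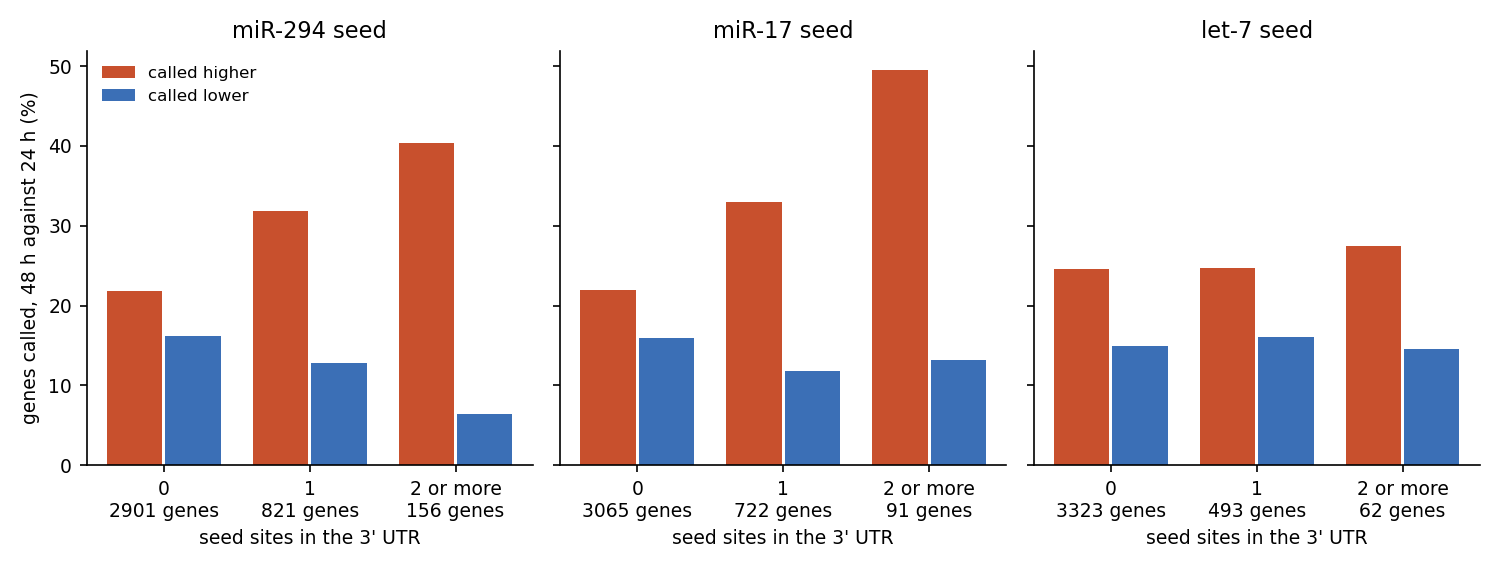
Share of genes (%) called higher (red) and lower (blue) at 48 h against 24 h, by the number of seed sites in 3' UTRs of 1500 to 3500 bases, for the miR-294, miR-17 and let-7 seeds. Bars for rises climb from 21.8% to 40.4% for miR-294 and from 22.0% to 49.5% for miR-17, and stand between 24.6% and 27.4% for let-7.

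Lin28a, whose protein blocks let-7 maturation, fell from 23442 and 22526 to 12723 and 12573 (-0.86, SE 0.04, adjusted p = 4.2e-13), after 31348 and 31030 at 0 h and before 3541 and 3676 at 96 h. Its UTR held 2 let-7 sites, chr4:134005180-134005206 and chr4:134004542-134004568 on the minus strand of GRCm38, shown because Lin28a had the largest fall of the let-7 list.
Lin28a, first site: gcctgttgaaCTACCTCatttttgccg
Lin28a, second site: cgccacaaacCTACCTCactgtgttga
Of 20 genes of the Lin28 and let-7 list 7 rose and 3 fell, with a median of 0.06, where 20.2% of all tested genes rose and 18.8% fell. Plagl2, a zinc finger factor, rose from 2908 and 3008 to 5302 and 5215 (0.83, SE 0.05), Ccnd2, a G1 cyclin, from 987 and 911 to 1225 and 1407 (0.47), and Hmga2, a chromatin protein with 4 let-7 sites, from 1223 and 1348 to 1680 and 1657 (0.38). In the UTR models used, Plagl2 had 1 let-7 site and Ccnd2 had 0. Igf2bp1, the most abundant member not called and also with 4 let-7 sites, read 29458 and 30470, then 27252 and 29082 (-0.09). Of 15 tested genes of the microRNA machinery 3 rose and 2 fell, no more than those shares. All that rose were the TNRC6 genes, whose proteins carry the repression downstream of Argonaute: Tnrc6b from 8662 and 9053 to 12106 and 12332 (0.46, SE 0.04), Tnrc6c from 6615 and 6646 to 8661 and 8355 (0.36) and Tnrc6a from 12742 and 12991 to 15599 and 15621 (0.28). The genes that fell were Ago3 and Tarbp2, a partner of Dicer (-0.24). The call of Tarbp2 was lost without 24 h library 1 (adjusted p = 0.059) or 48 h library 1 (adjusted p = 0.137).

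The title of the series names the Tgf-β/Smad network, in which Nodal, activin and Tgf-β signal through SMAD2 and SMAD3 and BMPs through other SMADs. Of 17 tested SMAD2/3 targets 7 rose and 2 fell, with a median of 0.23, where 20.2% of all tested genes rose and 18.8% fell. The leading rises named here were Lefty1 and Lefty2, given above. Tdgf1, the Nodal co-receptor Cripto, fell from 42871 and 41654 to 33265 and 33052 (-0.35, SE 0.04). Nodal itself read 5184 and 5446, then 5728 and 5830 (0.12, adjusted p = 0.045), and leaving out 24 h library 1, 48 h library 1 or 48 h library 2 ended the call (adjusted p of 0.288, 0.113 and 0.211). Tgif1, a corepressor of SMADs, was not called (-0.10). Of 24 tested ligands, receptors and SMAD genes 9 rose and 1 fell, with a median of 0.13. Rises were called in Tgfbr2, in Inhbb, an activin subunit, from 4125 and 3892 to 5863 and 6066 (0.57), and in Bmpr2, the type II BMP receptor, from 4305 and 4452 to 5567 and 5892 (0.39). The ligand Bmp4 fell from 590 and 575 to 400 and 379 (-0.58, SE 0.10), and its intron reads from 49.3 and 54.9 to 13.1 and 27.6 (-1.40, adjusted p = 0.015). Among 9 BMP target genes 1 rose and 4 fell (Id1, Id2, Id3 and Bambi). Id1, an inhibitor of basic helix-loop-helix factors, fell from 1854 and 1709 to 1184 and 1352 (-0.49, SE 0.08). Its relative Id4 rose from 1102 and 1108 to 1633 and 1728 (0.60). The change of Id3 was -0.47, from 816 and 655 to 476 and 581 (-0.32 without 24 h library 1), and that of Bambi -0.39 (adjusted p = 0.0763 without 24 h library 1 and 0.0553 without 48 h library 1).

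Genes of cholesterol synthesis and uptake rose as a group: 20 of 25 were called higher and 0 lower, with a median of 0.31. SREBP2 is known to drive these genes when sterol in the endoplasmic reticulum is low. Cyp51, a demethylase of the pathway, rose from 3794 and 3737 to 5716 and 5498 (0.57), and Insig1, a sterol-dependent brake on SREBP processing, from 5789 and 6198 to 8569 and 8674 (0.53, SE 0.05). The 2 times did not overlap in either gene, and Acat2 was the most abundant member not called (0.14). In introns 10 of 25 rose and 0 fell, against 4.77% and 4.42% of all genes, with a median of 0.25; Insig1 introns went from 532 and 562 to 784 and 878 (0.60, adjusted p = 9.6e-05). The median of the list was 0.31 on the first day and -0.38 from 48 to 96 h, when 23 fell and 1 rose. Of all tested genes 16.3% fell and 20.1% rose from 48 to 96 h. These steps share libraries with the second day.

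Genes of ribosome production and protein synthesis fell by small amounts. Of 18 genes of ribosome biogenesis 16 fell and 0 rose, with a median of -0.29. Npm1, an abundant nucleolar chaperone, fell from 91550 and 84880 to 56598 and 53218 (-0.68, SE 0.06, adjusted p = 8.8e-09), and its introns changed by -0.52 (adjusted p = 2.6e-08). Nhp2 (-0.50) and Gar1 (-0.46), proteins of the pseudouridylation particles, and Nip7 (-0.42) fell too, and Ppan was not called (-0.04). Of 20 cytosolic tRNA synthetase genes 16 fell and 0 rose, with a median of -0.21 and a range of -0.40 to -0.05. Dars (-0.40), Farsb (-0.38), Yars (-0.36) and Rars (-0.30) fell most, and in introns 1 of the 20 fell. Heat shock genes gave 4 falls in 10, led by the mitochondrial chaperonins Hspe1 (-0.47) and Hspd1 (-0.34), and 0 rises. Of 16 genes of the respiratory chain 6 fell and 0 rose, among them Cox6c, from 4362 and 4411 to 3012 and 2577 (-0.65).

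Glycolysis and hypoxia genes turned down after a rise. Of 31 tested 2 rose and 16 fell, with a median of -0.24, where the first-day median was 0.48. Slc16a3, the lactate exporter MCT4, climbed from 6651 and 6618 to 9288 and 9411 on the first day, fell to 6271 and 6964 on the second (-0.50, SE 0.08), and read 3246 and 4458 at the last time. Ndrg1, a gene known to respond to low oxygen, went from 504 and 484 to 1073 and 1006, then 658 and 728 (-0.59, SE 0.10), and 851 and 1055. Higd1a, a small mitochondrial protein of the hypoxia response, fell by 0.57 on the log2 scale. Ankrd37 changed by -0.85, a call lost without 24 h library 1 (adjusted p = 0.051). Tpi1, a glycolytic enzyme and the most abundant member not called, held at 37621 and 39162, then 36450 and 35809 (-0.09). In introns 11 of 29 members fell and 0 rose.

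Targets of ATF4, the factor of the integrated stress response that supports amino acid supply, gave 7 rises and 6 falls in 29 on this day, shares near those of all tested genes (20.2% and 18.8%), with a median of 0.03. On the first day 27 of the 29 had fallen, with a median of -0.63, where 24.1% of all tested genes fell and 26.5% rose. For 23 the second-day change was called above the first-day change, as for 14.3% of all genes. Atf5, itself a stress-induced factor, rose from 2508 and 2325 to 4000 and 4026 (0.73, SE 0.05), and its introns by 1.16 (adjusted p = 0.00018). Sesn2, which restrains mTORC1, rose from 4859 and 4890 to 6670 and 6856 (0.47), and Aldh1l2, of mitochondrial folate metabolism, from 253 and 233 to 349 and 356 (0.54). Psat1, of serine synthesis, was not called, at 17995 and 18226, then 16682 and 17554 (-0.08). Of 15 genes of the unfolded protein response 7 rose and 0 fell, by at most 0.38, led by the chaperone cofactor Dnajb9 (0.38) and Herpud1 (0.37); Hspa5, the main chaperone of the endoplasmic reticulum, was not called (0.10).

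Immediate early genes, which answer growth factors and stress within minutes to hours, rose in 10 of 16 cases and fell in 1, with a median of 0.44. Jun, a subunit of AP-1, rose from 327 and 349 to 784 and 816 (1.24, SE 0.10, adjusted p = 3.3e-09), and Egr1, a zinc finger factor, from 2456 and 2142 to 4632 and 4839 (1.05, SE 0.06). Fosl2 rose from 276 and 261 to 441 and 530 (0.85), and Nr4a1 was not called (0.12). Targets of FGF and ERK signalling, which primes ES cells for differentiation, did not move as a group, with 5 rises and 4 falls in 13. Egr1, given above, stands on this list too, and its rise (1.05) was the largest change there. Etv4, an ETS factor, fell from 3201 and 3022 to 1837 and 1938 (-0.72, SE 0.05, adjusted p = 7.7e-10), and the feedback inhibitors Spry1 (-0.39) and Spry2 (-0.29) fell, while Etv5 was not called (0.07). Of 11 WNT targets 3 rose and 4 fell, where 20.2% of all tested genes rose and 18.8% fell. Notum, a secreted inhibitor of WNT ligands, rose from 1754 and 1562 to 3312 and 3453 (1.03, SE 0.06), whereas Axin2, a feedback inhibitor inside the cell, fell from 407 and 390 to 247 and 196 (-0.85, SE 0.14).

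In the G1/S list 8 of 29 genes rose and 7 fell, with a median of 0.01, where 20.2% of all tested genes rose and 18.8% fell. Myc, a driver of growth, fell from 1276 and 1042 to 578 and 623 (-0.94, SE 0.09, adjusted p = 4.7e-08), the largest change of the list, and Cdkn1a, Rbl2 and Ccnd2 rose as given above. Of 23 p53 targets 10 rose and 1 fell, with a median of 0.14, including Perp, a desmosomal protein gene, from 1143 and 1067 to 1631 and 1412 (0.46). Cdkn1a, Btg2 and Sesn2, the other leading members, stand on other lists too, and Zmat3 was not called (0.05).

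Genes that describe ES cell state were called in both directions. Of 24 genes of the naive state 5 rose, near the 20.2% of all tested genes, and 8 fell, against 18.8%. Klf2, a naive-state factor, rose from 41078 and 41236 to 63206 and 65514 (0.64, SE 0.04, adjusted p = 2.4e-11), Gbx2, which supports self-renewal, fell from 1055 and 1048 to 689 and 755 (-0.54), and Dppa5a was not called (-0.09). In the formative list 2 of 11 rose and 3 fell, with Dnmt3b, a DNA methyltransferase, at 7269 and 6879, then 5021 and 4863 (-0.52, SE 0.05). Its cofactor Dnmt3l fell from 13986 and 13586 to 7831 and 7739 (-0.82, SE 0.05, adjusted p = 1.3e-11). Of 11 genes of LIF and STAT3 signalling 5 rose and 2 fell, with Junb at 0.44 and the receptor chain Il6st at 0.32.

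Counts for markers of other lineages stand beside 20.2% of all tested genes that rose and 18.8% that fell. Calls in the primitive endoderm and trophoblast lists went both ways, with more rises than falls. Of 16 primitive endoderm genes 6 rose and 2 fell. Gata4 rose by 0.60, and by 0.46 without 48 h library 2. Sox7 changed by -1.25, and by -0.99 without 48 h library 2. Col4a2, a basement membrane collagen, rose from 896 and 916 to 1594 and 1616 (0.82), while Gata6, a defining marker, had under 10 reads in both 48 h libraries and a change of -2.20 whose call was lost without 24 h library 2 (adjusted p = 0.135) or 48 h library 1 (adjusted p = 0.133). Of 13 trophoblast genes 5 rose and 2 fell, with the keratins Krt8 from 712 and 674 to 1285 and 1194 (0.84) and Krt19 from 319 and 341 to 549 and 580 (0.77), and the imprinted factor Ascl2 from 204 and 181 to 97.8 and 114 (-0.85). Of 13 mesoderm genes 2 rose and 0 fell. Evx1, a homeobox gene of the primitive streak, rose from 17.0 and 8.74 to 57.9 and 72.5 (2.31, SE 0.29), after 81.2 and 102 at 0 h. Nes, an intermediate filament gene of neural precursors, rose from 1496 and 1645 to 2739 and 2465 (0.73), and Gap43, of growing axons, fell from 1675 and 1609 to 1207 and 1157 (-0.47). Of 11 genes of the rare cells that resemble the 2-cell embryo 2 rose and 0 fell on this day. They were Usp17la, from 61.6 and 34.9 to 70.7 and 99.9 (0.84), and Zscan4c, from 371 and 272 to 442 and 388 (0.38). Without 24 h library 2 their changes were 0.44 (adjusted p = 0.276) and 0.16 (adjusted p = 0.429), and without 24 h library 1 that of Zscan4c was 0.60.

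In the lists that follow, the shares are to be read against 20.2% of all tested genes that rose and 18.8% that fell. Of 18 imprinted genes 5 rose and 4 fell, near those shares. Plagl1, a zinc finger factor of the imprinted network, rose from 5367 and 5203 to 8439 and 8383 (0.67, SE 0.04, adjusted p = 1.2e-10), with introns at 0.79, and Igf2 from 228 and 256 to 418 and 367 (0.69). Of 19 interferon genes 6 rose and 2 fell, with a median of 0.34. Irf9, a factor of the interferon response, rose from 1553 and 1377 to 2222 and 2249 (0.61), and Rsad2, an antiviral enzyme, from 2.13 and 5.82 to 30.9 and 30.6 (2.78, SE 0.53), with so few reads at 24 h that the size is uncertain. Of 14 clock genes 7 rose and 0 fell, with a median of 0.22, among them Cry1 (0.47), Clock (0.40) and Tef (0.40), and Nr1d2 was not called (0.03). Genes of the extracellular matrix and cytoskeleton gave 8 rises and 6 falls in 27, with Itgav, an integrin subunit that takes part in Tgf-β activation, from 5049 and 5368 to 7873 and 8235 (0.63), and S100a6 from 962 and 965 to 745 and 683 (-0.43). Of 18 chromatin genes 4 rose and 6 fell, and of 19 germline genes 3 rose and 3 fell, also near them, with Tex19.1 from 1177 and 1194 to 890 and 912 (-0.40).

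**Figure D4:**
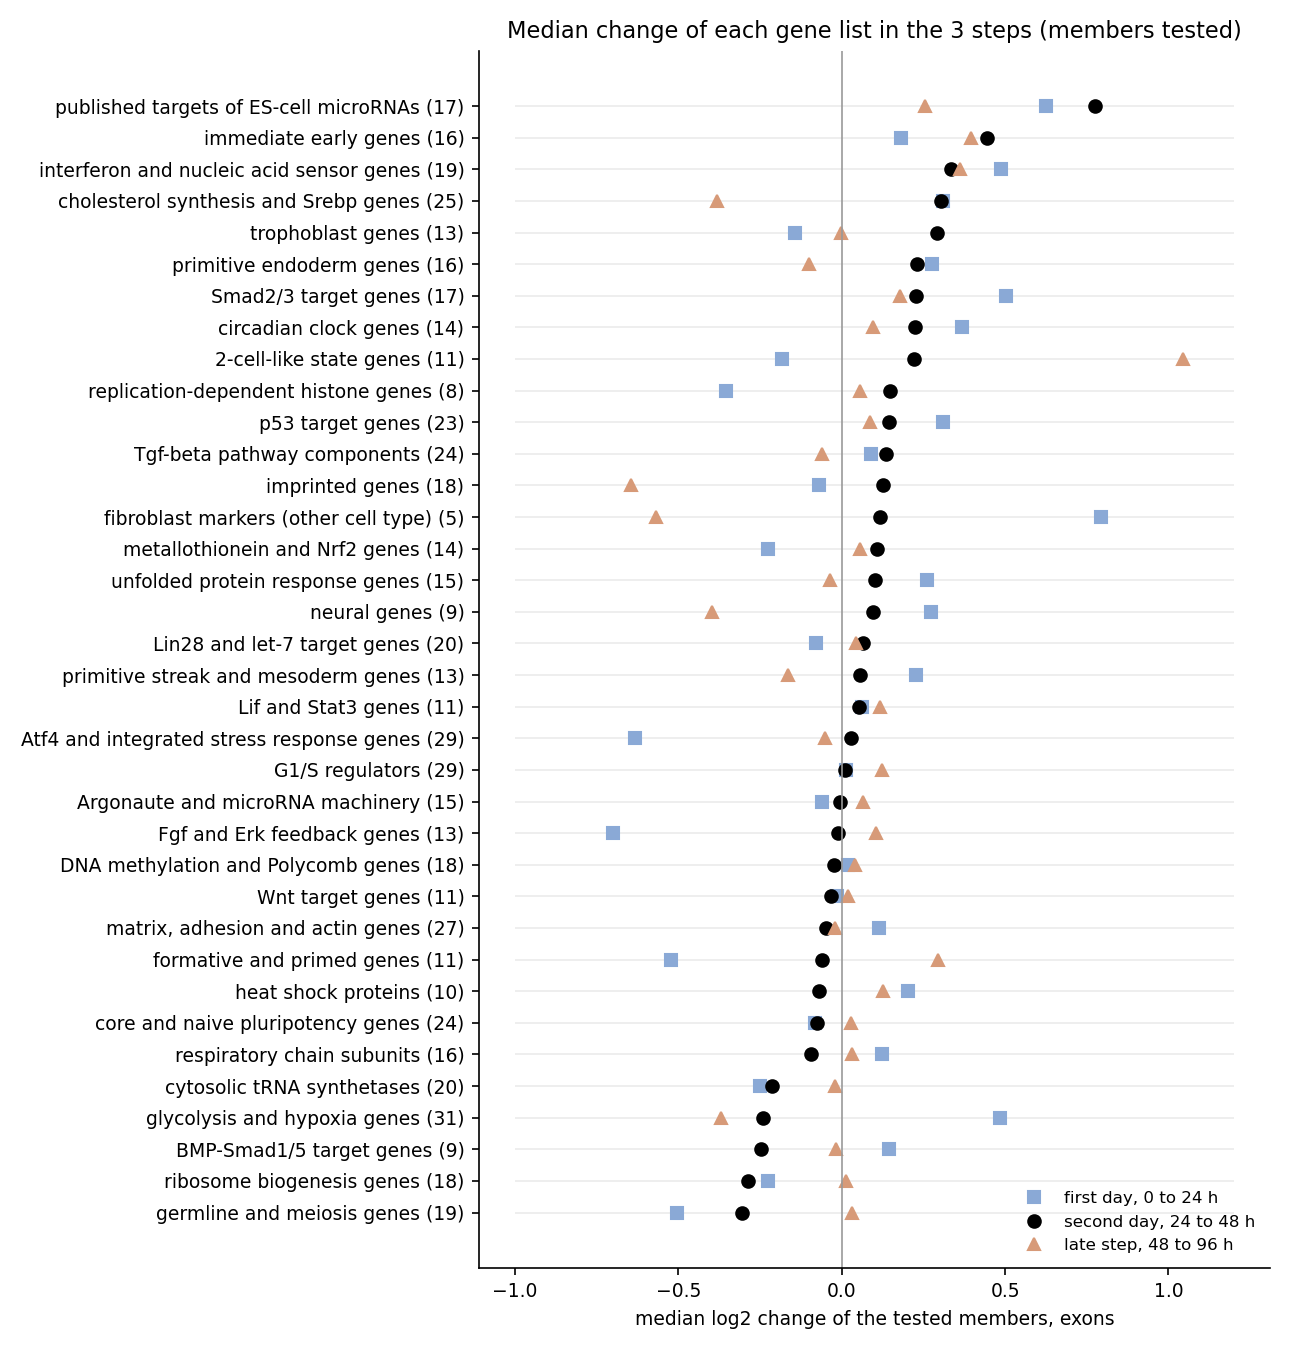
Median log2 change of the exon reads of each gene list on the first day (0 to 24 h), the second day (24 to 48 h) and from 48 to 96 h. Targets of ES cell microRNAs stand highest on the second day (0.78), cholesterol genes at 0.31, and ribosome biogenesis and glycolysis genes at -0.29 and -0.24; steps next to each other share libraries.

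Intron reads, which come from unspliced RNA, changed in fewer genes. Of 12225 tested, 583 rose (4.77%) and 540 fell (4.42%), with intron reads of 5.62 and 4.05 M in the 24 h and 8.38 and 8.16 M in the 48 h libraries. Without 48 h library 1 the counts were 235 and 240, and without 48 h library 2 they were 242 and 222. The largest rises with at least 50 reads were those of Mt2 and Mt1, of Napsa, an aspartic protease, from 24.1 and 6.10 to 59.1 and 46.3 (2.00, SE 0.46), of Chit1, from 45.0 and 45.8 to 171 and 167 (1.87, SE 0.25), and of Phactr1 (1.72). The largest falls were those of Spink1, a trypsin inhibitor, from 105 and 74.8 to 23.3 and 23.2 (-1.89, SE 0.34), of Car4, a carbonic anhydrase (-1.70), Matn3 (-1.64), Jph1 (-1.44), Pou2f3 (-1.40) and Bmp4 (-1.40). In exons Spink1 read 101 and 75.7, then 36.9 and 23.4, and Car4 95.6 and 99.0, then 19.6 and 23.4. The median intron change of the 15 microRNA targets tested was 0.26, against 0.78 in exons, with 3 called higher, namely Nr2f2 (1.85), Lefty1 from 421 and 331 to 717 and 654 (0.87, adjusted p = 9.3e-06) and Lefty2 from 170 and 133 to 270 and 263 (0.82, adjusted p = 0.0025). Cdkn1a introns read 371 and 388, then 419 and 494 (0.26, adjusted p = 0.19).

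The difference between exon and intron change was tested directly on 11939 genes. limma called 0 of them (0%), in either direction, and 1673 had an unadjusted p below 0.05. The smallest adjusted p was 0.114. With a prior trended on the intron level, an alternative chosen after seeing the data, 167 were called higher and 238 lower. The microRNA targets had a median difference of 0.29, and the value was 0.57 for Cdkn1a (adjusted p = 0.22), 0.29 for Lefty1 (adjusted p = 0.43) and -0.00 for Mt2 (adjusted p = 0.99). At 0, 24 and 48 h the libraries of exons and introns were matched by depth. Their deviations correlated weakly (0.0929 at 24 h and 0.0705 at 48 h over 9825 genes), which limits this test. At 96 h the correlation by depth was -0.149, so the opposite match was taken there, and that group enters the shared estimate of spread.

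The second day differed from the first in many genes. The change from 24 to 48 h was called above that from 0 to 24 h in 1946 of 13652 genes (14.3%) and below it in 2106 (15.4%), in a contrast of the same fit. Without 24 h library 2 these counts were 1214 and 1222. Genes that turned are named by the size of the difference among those whose highest mean from 0 to 48 h reached 100 reads. Mt2 turned upward, from -2.23 on the first day to 2.43 on the second, a difference of 4.66. Bcl2l15, a BCL2 relative, went from -3.03 to 0.98, Nr2f2 from -0.99 to 2.13 and Mt1 from -1.37 to 1.60. Evx1, below that level, went from -2.80 to 2.31, a larger difference (5.11). The second-day rise of Bcl2l15, from 17.0 and 16.0 to 48.2 and 23.4, was 0.48 without 48 h library 1 (adjusted p = 0.388). In the other direction Stra8, a meiosis gene, went from 2.48 to -0.79, Sepp1 from 1.5 to -1.22, Sh2d4a from 1.36 to -1.32 and Aurkc, a kinase of germ cells, from 1.61 to -0.81. Stra8 went from 44.5 and 75.5 reads to 349 and 310 and back to 202 and 178, and its second-day call was lost without 24 h library 1 (adjusted p = 0.0655) or 48 h library 2 (0.0814). Of the microRNA targets, 2 were called above and 6 below their first-day change: Cdkn1a rose by 1.28 and then 0.84, Lefty1 by 1.66 and then 1.17. Lats2 changed by -0.35 and then 1.04. Of the glycolysis list 26 of 31 were called below their first-day change and 1 above.

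From 48 to 96 h the change, taken per 24 h, was called above that of the second day in 2025 genes (14.8%) and below it in 1901 (13.9%). Without 48 h library 2 the counts were 986 and 885, and without 48 h library 1 they were 1147 and 951. Lefty1 read 27694 and 27683 at 96 h and Lefty2 23352 and 26534, with changes after 48 h of -0.10 (adjusted p = 0.059) and 0.01 (adjusted p = 0.94) that were not called. Cdkn1a rose further, to 9999 and 9833 (0.30), as did Rbl2, to 4091 and 3974 (0.44), Lats2, to 2718 and 2290 (1.22), and Nr2f2, to 473 and 432 (1.67). Lin28a fell by 1.81 on the log2 scale over these 48 h. Genes of the list from 2-cell-like cells rose in 9 of 11 cases after 48 h, against 20.1% of all tested genes, with a median of 1.04.

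Genes that moved on the second day were then read in the separate libraries to which doxycycline had been returned. At 2.5 µg/mL against none, 4189 of 13176 genes were higher (31.8%) and 4211 lower (32%). Of the 2754 genes that rose on the second day 2740 were tested there: 2059 were lower with doxycycline (75.15%) and 157 higher (5.73%), with a median log2 change of -0.56. These 2059 were 48.9% of all genes lower with doxycycline. Of the 2570 that fell, 2564 were tested, and 1875 were higher with doxycycline (73.13%) and 157 lower, with a median of 0.40; they were 44.76% of all genes higher with it. At 0.1 µg/mL the medians were -0.34 and 0.25, against the same untreated libraries. Among the 166 genes that rose at least 2-fold 152 were tested and 108 were lower (71.05%), with 5 higher. Among the 45 that fell at least 2-fold 39 were tested and 19 were higher, with 3 lower. That share of higher genes (48.72%) was below the share among all falls.

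The microRNA targets were lower in 15 of 17 cases after the return of 2.5 µg/mL, with a median of -1.47, and at 0.1 µg/mL their median was -0.82. Lefty1 read 13977 and 13064 without doxycycline, 5759 and 6107 at 0.1 and 1949 and 1697 at 2.5 µg/mL. Cdkn1a read 5742 and 5641, 2643 and 2581, and 1206 and 1163, and Irf2 262 and 262, 72.9 and 113, and 3.92 and 11.1. Each of these genes stepped down with dose and no libraries of different doses overlapped. Lin28a stepped up, from 2297 and 2563 to 17978 and 17434 and then 24239 and 25876. Mt2 read 14667 and 14137, 11171 and 10744, and 12913 and 11942, a change of -0.21 at 2.5 µg/mL. The sterol gene Insig1 was lower with doxycycline (-0.61), while its list was split, with 9 of 25 higher and 11 lower. ATF4 targets were higher in 26 of 29 cases and lower in 0, with a median of 1.15, ribosome biogenesis genes higher in 14 of 18 and tRNA synthetase genes higher in 16 of 20.

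**Figure D5:**
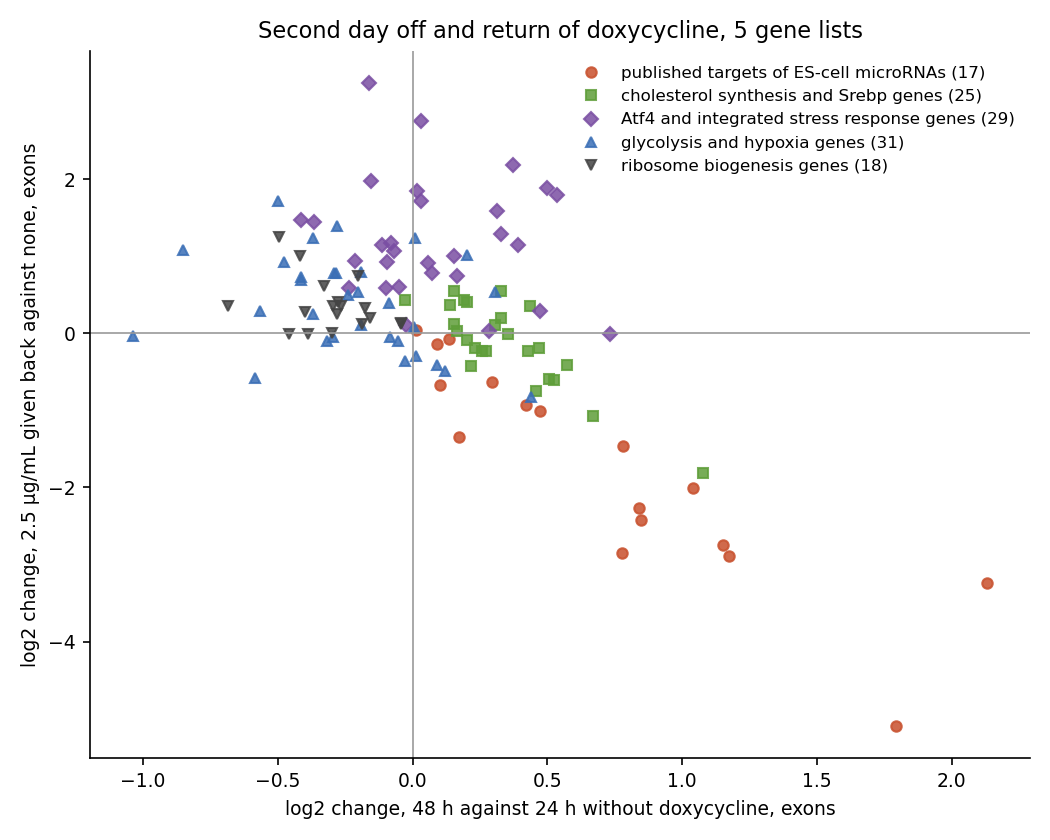
Log2 change of exon reads on return of 2.5 µg/mL doxycycline (vertical axis) against the second-day log2 change (horizontal axis), 1 point per gene of 5 lists: microRNA targets, cholesterol, ATF4 targets, glycolysis and hypoxia, and ribosome biogenesis. MicroRNA targets lie to the right and mostly low, with medians of 0.78 and -1.47, and ATF4 targets near 0 on the second day and high, with medians of 0.03 and 1.15.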

How the data were processed

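Polyadenylated RNA was sequenced as strand-specific libraries, per the labels' protocols. The authors deposited, per the file headers, a normalised signal per gene and group, the mean of 2 libraries, for exons and introns apart. TopHat2 2.0.12, DESeq and mm10 are named in the submitters' processing notes; the read counter is not given in the sources used here. Each mean is a sum of whole reads times 1 step per library, and reads of both libraries were solved for 202532 of 202532 values (100%, largest relative misfit 5.87e-15, tolerance 2e-14). Libraries are numbered by depth within a group, library 1 being the deeper. The planned test needed library values and used the recovered ones. Normalised reads kept the authors' size factors, had 1 added, were log2-transformed and were fitted with limma 3.58.1 (R 4.3.3) with a trended prior over the 4 times, or over the 3 rescue groups. Tested genes averaged 10 or more, and calls needed an adjusted p (Benjamini-Hochberg) under 0.05. Changes are on the log2(value + 1) scale, which understates those of low genes. The script was tested on simulated data.

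The members, the 36 gene lists and the rules were chosen with earlier results of these data known. Named genes are the 12 largest called rises and 12 falls of at least 2-fold with libraries that do not overlap and a higher mean of at least 100, the 6 largest intron changes each way with a higher mean of at least 50, the 4 largest turns each way between the days with a highest mean of at least 100 from 0 to 48 h, and, per list, up to 4 called members with the largest change and the most abundant one not called, besides the Argonaute genes, Blm, Lefty1, Lefty2, Nodal, Cdkn1a, Lin28a, Irf2, Insig1, Mt1 and Mt2. Some genes that the rules name are not reported here. Other members named beside small counts were chosen after their values were seen. UTRs are the longest coding models of GENCODE M21. Alternatives were pseudocounts of 0.5 and 5, no filter, a mean of at least 50, the 2 times alone, equal totals, precision weights and leaving out each library.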

Additional observations from a re-analysis of the deposited data

Results flagged for a closer look

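Between the first and the second day 4052 genes differed in their change, by the contrast of the 2 steps in 1 limma fit. Of the genes called in opposite directions on the 2 days, those with the largest difference and a highest mean of at least 100 reads from 0 to 48 h are given, as second-day minus first-day log2 change. Upward turns were those of Mt2 (4.66), Bcl2l15 (4.01), Nr2f2 (3.12) and Mt1 (2.96). Downward turns were those of Stra8 (-3.27), Sepp1 (-2.72), Sh2d4a (-2.68) and Aurkc (-2.42). Both steps use the 24 h libraries, with opposite signs, so an error in that pair enters the difference with double weight; which part of these differences it makes was not tested.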

How the results depend on the processing

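Changes of pseudocount, filter, scaling, weights or library left the exon counts within 1.5 times of those given: without 1 library they were 1900 to 2244 higher and 1818 to 2156 lower, and with equal total reads 3211 and 2186. In introns 372 genes were higher and 333 lower with no filter, and 235 to 522 and 222 to 406 without 1 library; the cause was not tested. For exon minus intron, a prior trended on the intron level called 167 higher and 238 lower; every other setting run called 0, and precision weights were not run there. Without 1 library the second day was called above the first in 1214 to 1552 genes and below it in 1222 to 1685, and the late step above the second day in 986 to 1790 and below it in 885 to 1681. Those fits have fewer samples, and the lone library is assumed to vary like the other groups. Of 188 named genes tested 151 were called; 31 lost the call under some setting, 14 gained one and 0 reversed. No paired analysis was possible because the deposited columns carry no replicate numbers. Intron reads were 4.05 to 8.38 M and exon reads 32.9 to 62.4 M in these libraries; the part of depth in the intron counts was not tested.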
